A study of Homo sapiens and Mus musculus with 24 samples.

Results

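RNA levels of 10 genes of extracellular matrix turnover, 7 matrix metalloproteinases (MMP1, MMP2, MMP3, MMP9, MMP10, MMP13 and MMP14) and 3 tissue inhibitors of metalloproteinases (TIMP1, TIMP2 and TIMP3), were compared across 4 groups of MCF10A libraries. The genes were chosen by symbol, with earlier results of these data known, and they are 10 of the 58434 gene identifiers in the tables. Counts of them called, set beside the share of all genes, are therefore a description and not a test of enrichment. MCF10A is an established line of human mammary epithelial cells that does not form tumours. The parental line, wildtype at PIK3CA, was set beside an isogenic line with a heterozygous PIK3CA H1047R knock-in, a change known to activate phosphoinositide 3-kinase (PI3K) alpha, whose catalytic subunit this gene encodes. Each line received DMSO, the solvent control, or BYL719 (alpelisib), an inhibitor of PI3K alpha, at 1 uM, and the labels give 4 h for all groups. This made 4 groups of n = 3 libraries, called parental DMSO, parental BYL719, knock-in DMSO and knock-in BYL719. Both lines were purchased. The sources used here do not say whether the knock-in is a single clone, nor whether replicates are separate cultures. The p-values below therefore measure the spread between these libraries, and the knock-in and any other difference between the lines cannot be told apart.

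Matrix metalloproteinases are secreted or membrane-bound enzymes that hold a catalytic zinc ion and cut collagens, other matrix proteins and cell surface proteins. They are made as inactive precursors, and TIMPs block the active enzymes by filling the catalytic cleft. In mammary epithelium these enzymes are known for remodelling the basement membrane during branching and involution, and RNA level is only one of the steps that set their activity.

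The catalytic site is the stretch of sequence that unites the 7 enzymes, and it also shows how near MMP3 and MMP10 are to each other, which matters for reads that could match both. The coding bases of the zinc-binding site, read 5′ to 3′ on the coding strand from the GENCODE 29 transcripts (GRCh38), are shown with the 3 histidine codons that bind the zinc in capitals. Each site lies within 1 exon of the gene's first protein-coding transcript.
MMP1: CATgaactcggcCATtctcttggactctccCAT
MMP10: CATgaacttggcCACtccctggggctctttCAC
MMP3: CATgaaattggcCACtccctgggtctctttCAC
MMP13: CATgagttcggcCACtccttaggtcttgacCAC
MMP2: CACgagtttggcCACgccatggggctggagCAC
MMP9: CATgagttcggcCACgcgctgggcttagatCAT
MMP14: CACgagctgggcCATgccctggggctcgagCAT

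The site of MMP1 is at chr11:102795549-102795581, that of MMP10 at chr11:102776718-102776750, that of MMP3 at chr11:102840535-102840567 and that of MMP13 at chr11:102952115-102952147. All 4 are on the minus strand and in exon 5. The site of MMP2 is in exon 8 at chr16:55491827-55491859, that of MMP9 in exon 8 at chr20:46012453-46012485, and that of MMP14 in exon 5 at chr14:22843283-22843315. MMP3 and MMP10 share 31 of the 33 bases of the site, while the other pairs share 18 to 27. Over the whole coding sequence MMP3 and MMP10 were 85.2% identical in a pairwise alignment, against 59.5% to 66.7% for the other pairs of metalloproteinases and 61.1% to 62.0% for pairs of TIMPs. Of the 31-base words in their transcripts, 125 were common to MMP3 and MMP10, which is 6.11% of the MMP3 words and 7.12% of the MMP10 words. MMP10 held 372 to 5002 reads per group and MMP3 30 to 86, so a small share of misassigned MMP10 reads could alter the MMP3 level. In DMSO, MMP10 held 5002 reads in parental and 372 in knock-in cells, and MMP3 held 31 and 79. Misassignment was not tested.

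The 12 libraries held 120177015 to 162755457 estimated read pairs, and their identity and outliers were checked before the comparisons. All 12 basal mammary epithelial markers averaged at least 1 CPM (counts of a gene per 1e6 counts of the library) in every group, with summed levels of 9545 to 11690 CPM. Of the 7 haematopoietic markers, 3 averaged at least 1 CPM in every group (CSF1R, MPO and CD14), and the summed list was 19.5 to 21.2 CPM in the parental and 11.2 to 14.3 CPM in the knock-in libraries. Of the 6 endothelial markers at most 1, KDR, did so, with sums of 1.22 to 3.04 CPM. PTPRC and CD3E, which define leukocytes and T cells, and the endothelial CDH5 were at or near 0. PIK3CA itself was at 57.8 ± 1.69 CPM (SD, n = 3) in parental DMSO and 40.2 ± 5.90 in knock-in DMSO, and at 69.0 ± 2.81 and 70.5 ± 1.55 CPM in the parental and knock-in BYL719 groups, levels that do not read the base change. One library stood apart on the second principal component, at 58.6 for knock-in DMSO replicate 2 against 15.4 and 17.9 for the other replicates of that group. Another, knock-in BYL719 replicate 3, held 4.33 CPM of COL1A2 and 2.12 CPM of COL3A1, fibrillar collagen genes of fibroblasts, where the other 2 libraries of its group held 0.154 and 0.0686 CPM of COL1A2 and 0.103 and 0.0305 CPM of COL3A1. Of the 8 fibroblast markers, 3 averaged at least 1 CPM in each of the other groups and 4 in knock-in BYL719. The 3 were COL6A3 (20.1 to 74.0 CPM), FAP (30.4 to 43.9) and COL1A1 (17.2 to 26.1), joined by COL1A2 in knock-in BYL719. The summed fibroblast list was 118.7 to 124.8 CPM in parental DMSO and 121.9 to 131.4 in parental BYL719. It was 81.7 to 95.0 CPM in knock-in DMSO and 96.6 to 111.4 in knock-in BYL719. THY1 and LUM were near 0 throughout. In knock-in BYL719 replicate 3, COL1A1 was at 24.8 CPM against 17.2 and 20.7 in its group mates, and PDGFRB at 0.281 against 0.316 and 0.450. In bulk RNA, fewer cells of a type and less RNA per cell cannot be told apart.

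TIMP1 was by far the most abundant of the 10 RNAs per unit length, and the knock-in line differed from the parental line in most of the others. In TPM, a unit that corrects for transcript length, parental DMSO cells held 1733 ± 33.3 TPM of TIMP1, 130.7 ± 6.26 of MMP14, 37.2 ± 1.2 of TIMP2 and 30.9 ± 0.721 of TIMP3. MMP9 followed at 18.8 ± 0.0794 TPM, MMP10 at 13 ± 0.899, MMP1 at 3.33 ± 0.319 and MMP2 at 1.31 ± 0.173. MMP13, at 0.199 ± 0.0147 TPM, and MMP3, at 0.0563 ± 0.0317, came last. Each gap between neighbours in that order was larger than their SDs added together. In knock-in DMSO the order of the first 7 was the same, whereas MMP3 (0.158 ± 0.0379 TPM) did not differ from MMP2 (0.135 ± 0.0435), nor MMP2 from MMP13 (0.115 ± 0.0209), beyond their spread. In parental BYL719, TIMP2 (39.6 ± 1.61 TPM) and TIMP3 (37.4 ± 1.31) did not differ beyond theirs. In knock-in BYL719 the same held for MMP1 against MMP10, for MMP13 against MMP2 and for MMP2 against MMP3.

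**Figure D1:**
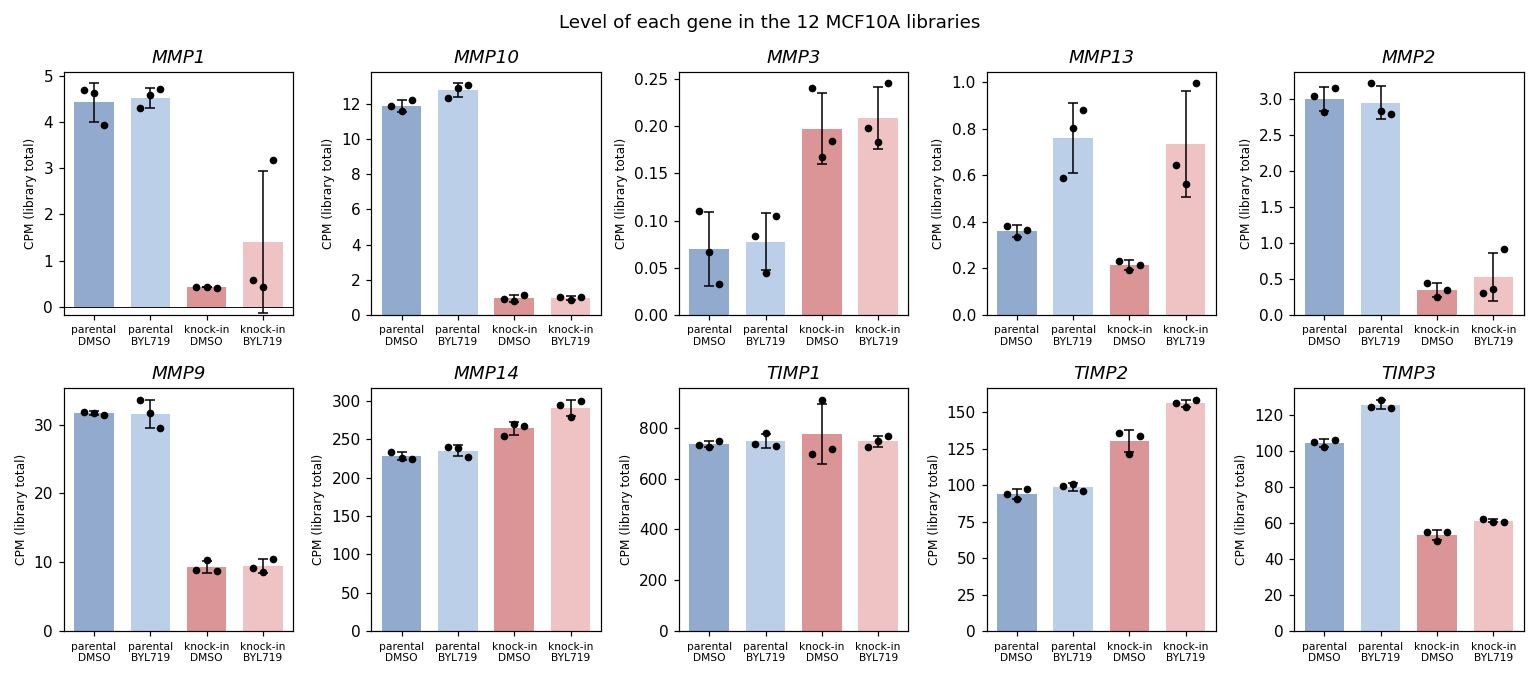
Level of each gene in CPM (vertical axes, linear, one scale per panel) in the 4 groups, with bars at the mean, whiskers of 1 SD and a point for each of the 3 libraries. MMP1, MMP10, MMP2, MMP9 and TIMP3 are lower and TIMP2 is higher in every knock-in library than in every parental library; in the MMP1 and MMP2 panels, knock-in BYL719 replicate 3 lies above the rest of its group.

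Knock-in and parental cells under DMSO were compared to see how the 2 lines differ without drug. MMP10, MMP1 and MMP2 RNA fell by 3.64, 3.37 and 3.08 on the log2 scale, MMP9 by 1.74 and TIMP3 by 0.94, whereas TIMP2 rose by 0.50. In all, 9 of the 10 genes were called, 3 higher and 6 lower, at an adjusted p under 0.05 in edgeR's quasi-likelihood test with Benjamini-Hochberg adjustment over 21079 genes. In the same test 34.2% of all genes were called, 17.0% higher and 17.2% lower. The median log2 fold change of the 10 genes was -0.84, and that of all genes was 0.005. The CPM ranges of the 2 groups did not overlap for 9 of the 10 genes, against 45.7% of all genes.

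Among the interstitial collagenases, MMP1 cuts fibrillar collagens I to III. MMP1 stood at 4.69, 4.64 and 3.95 CPM in the parental DMSO libraries and at 0.422, 0.420 and 0.416 CPM in the knock-in DMSO libraries. Every knock-in value was below every parental value, 10.3-fold lower in the fit (log2 fold change -3.37, SE 0.597, adjusted p = 0.00106 in edgeR). MMP13 (collagenase 3, which also cuts collagen II) was much scarcer, at 0.381, 0.333 and 0.367 CPM in parental DMSO and 0.233, 0.191 and 0.216 CPM in knock-in DMSO. These groups did not overlap, and the log2 fold change was -0.73 (SE 0.247, adjusted p = 0.0376 in edgeR). That call rested on 25 to 62 reads per library. It was lost on leaving out parental DMSO replicate 1, 2 or 3 (adjusted p = 0.104, 0.0635 and 0.0884), knock-in DMSO replicate 1, 2 or 3 (0.0573, 0.0749 and 0.0825) or parental BYL719 replicate 2 (0.0509).

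The gelatinases cut denatured collagen and collagen IV of the basement membrane. MMP2 (gelatinase A) was at 3.04, 2.83 and 3.16 CPM in parental DMSO and at 0.444, 0.252 and 0.346 CPM in knock-in DMSO, with no overlap (log2 fold change -3.08, SE 0.327, adjusted p = 1.49e-05 in edgeR). MMP9 (gelatinase B) was at 31.9, 31.7 and 31.3 CPM in parental DMSO. Its knock-in DMSO values of 8.82, 10.4 and 8.73 CPM were 3.33-fold lower (SE 0.0902 on the log2 scale, adjusted p = 2.88e-08 in edgeR).

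The stromelysins cut proteoglycans, laminin and fibronectin and activate other metalloproteinase precursors. MMP10 (stromelysin 2) showed the largest difference of the 10 genes. It stood at 11.9, 11.6 and 12.3 CPM in parental DMSO and at 0.895, 0.763 and 1.15 CPM in knock-in DMSO, 12.5-fold lower (log2 fold change -3.64, SE 0.120, adjusted p = 6.13e-10 in edgeR). MMP3 (stromelysin 1) went the other way at a level that was very low throughout, with 0.111, 0.0667 and 0.0326 CPM in parental DMSO and 0.240, 0.168 and 0.185 CPM in knock-in DMSO. The groups did not overlap (log2 fold change 1.47, SE 0.386, adjusted p = 0.0107 in edgeR), but these values rest on 4 to 18 reads per parental library and 22 to 33 per knock-in library.

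MMP14, the membrane-type enzyme that activates the MMP2 precursor together with TIMP2, was the most abundant metalloproteinase. It was at 233.7, 225.8 and 225.0 CPM in parental DMSO and at 254.8, 270.6 and 268.1 CPM in knock-in DMSO, so that the groups did not overlap (log2 fold change 0.24, SE 0.0467, adjusted p = 0.00165 in edgeR). When the authors' effective transcript lengths entered the fit, the difference was 0.08 with an adjusted p of 0.308. Beside this, the share of MMP14 reads assigned to the non-coding transcript MMP14-205 was 0.63% in knock-in DMSO replicate 2 and 7.91% to 13.1% in the other 11 libraries. MMP14 stood at 111.3 TPM in that library and at 142.9 and 146.0 TPM in the other 2 of its group. The part of that library in the effective-length value was not tested. Leaving it out of the standard fit gave a log2 fold change of 0.21 (adjusted p = 0.000382).

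Of the inhibitors, TIMP3, which binds the matrix and also blocks the ADAM17 sheddase, was the one that fell. It was at 105.1, 102.1 and 106.4 CPM in parental DMSO and at 55.1, 49.95 and 55.2 CPM in knock-in DMSO, 1.92-fold lower (log2 fold change -0.94, SE 0.0435, adjusted p = 1.10e-08 in edgeR). TIMP2 rose from 93.8, 90.9 and 97.7 CPM to 135.7, 121.8 and 133.9 CPM (log2 fold change 0.50, SE 0.0474, adjusted p = 6.01e-06). TIMP1, a secreted inhibitor of most soluble metalloproteinases, was at 732.4, 724.2 and 746.9 CPM in parental DMSO and at 698.0, 910.4 and 716.1 CPM in knock-in DMSO. The TIMP1 groups overlapped, and the difference did not pass the test (log2 fold change 0.11, SE 0.0899, adjusted p = 0.395). Its high value was again from knock-in DMSO replicate 2, without which the log2 fold change was -0.04 (SE 0.0347, adjusted p = 0.376).

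**Figure D2:**
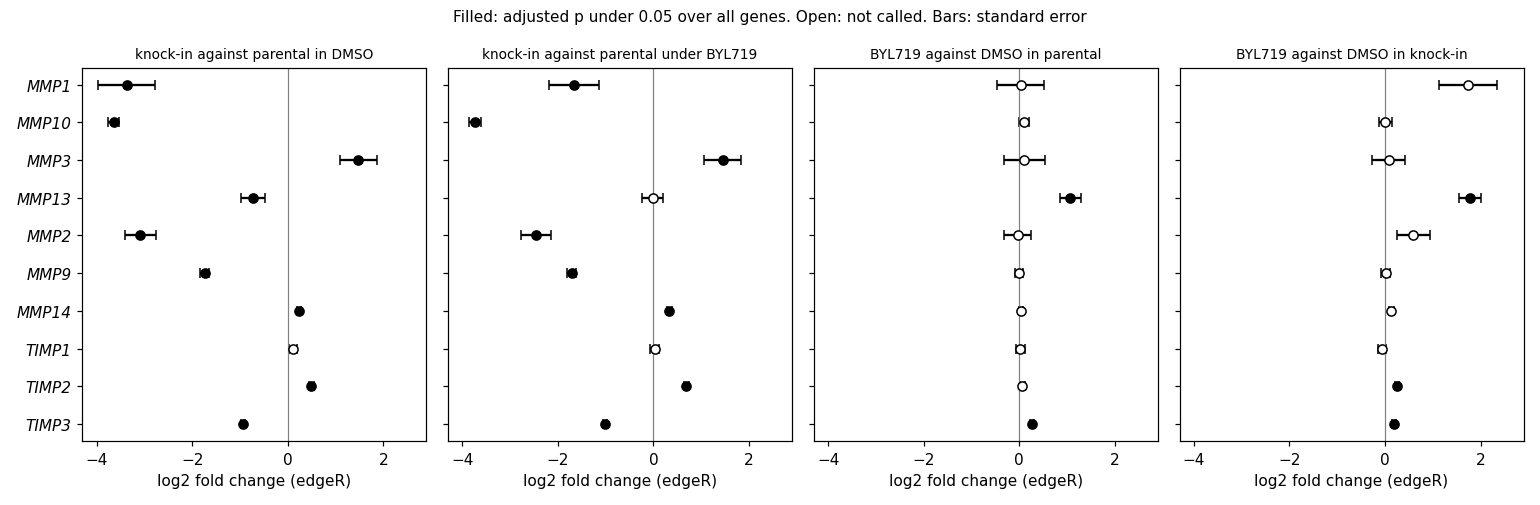
Log2 fold change from edgeR (horizontal axes) of each gene in 4 comparisons, with bars of 1 SE, filled points for an adjusted p under 0.05 and open points for the rest. Both comparisons of knock-in with parental cells show MMP10, MMP2, MMP9, MMP1 and TIMP3 to the left of 0, while in both BYL719 comparisons the filled points, MMP13, TIMP3 and, in knock-in cells, TIMP2, lie to the right.

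The same line contrast under BYL719 was examined next. It shares no library with the contrast under DMSO, although all 12 libraries gave 1 estimate of the spread. Of the 10 genes, 8 were called, 3 higher and 5 lower, against 22.3% of all genes (11.4% higher and 10.9% lower). The groups did not overlap for 8 of the 10, against 46.0% of all genes. MMP10 was at 12.4, 12.9 and 13.1 CPM in parental BYL719 and at 1.02, 0.815 and 0.989 CPM in knock-in BYL719, 13.3-fold lower (log2 fold change -3.73, SE 0.120, adjusted p = 5.21e-10 in edgeR). MMP9 was at 33.6, 31.6 and 29.5 CPM against 9.19, 8.63 and 10.53 CPM (log2 fold change -1.71, adjusted p = 3.63e-08). MMP2 was at 3.22, 2.84 and 2.80 CPM against 0.301, 0.358 and 0.912 CPM (log2 fold change -2.46, adjusted p = 8.11e-05). For each of these enzymes every knock-in library was below every parental library.

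Of the inhibitors, TIMP2 and TIMP3 were also called between the lines under BYL719. TIMP3 was at 124.6, 128.6 and 124.1 CPM in parental cells and at 62.4, 60.7 and 60.9 CPM in knock-in cells (log2 fold change -1.01, SE 0.0435, adjusted p = 6.01e-09 in edgeR). TIMP2 was at 99.4, 101.1 and 96.0 CPM against 156.5, 153.6 and 158.6 CPM (log2 fold change 0.69, SE 0.0475, adjusted p = 3.99e-07), and MMP14 rose with it by 0.33 (SE 0.0467, adjusted p = 0.000184). TIMP1 (log2 fold change 0.02, SE 0.0899) and MMP13 (-0.02, SE 0.212) did not pass the test, at adjusted p of 0.903 and 0.965.

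MMP1 and MMP3 gave less secure calls under BYL719. MMP1 was at 4.29, 4.58 and 4.72 CPM in parental cells and at 0.580, 0.434 and 3.18 CPM in knock-in cells, where replicate 3 stood far above the others (log2 fold change -1.66, SE 0.526, adjusted p = 0.0417 in edgeR). Without that replicate the log2 fold change of MMP1 was -3.13 with an adjusted p of 6.63e-08. The call was lost when any of the other 11 libraries was left out, with adjusted p of 0.0588 to 0.113, and also without a filter on low counts (0.160) or with only the 2 groups fitted (0.216). MMP3 rose by 1.45 (SE 0.386, adjusted p = 0.0164), which was lost without parental BYL719 replicate 2 (0.0768) or knock-in BYL719 replicate 3 (0.0644). With effective lengths in the fit it was 0.30 with an adjusted p of 0.755. In parental BYL719 replicate 2, 29% of the few MMP3 reads were assigned to MMP3-202, a transcript of 296 bases, and in 10 of the 12 libraries none were.

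BYL719 was compared with DMSO within each line to see which of these RNAs respond within 4 h. In parental cells MMP13 and TIMP3 rose and no member fell, so that 2 of 10 genes were called, against 1.43% of all genes (0.844% higher). MMP13 went from 0.381, 0.333 and 0.367 CPM to 0.591, 0.805 and 0.882 CPM, 2.10-fold higher without overlap (log2 fold change 1.07, SE 0.223, adjusted p = 0.0378 in edgeR). TIMP3 went from 105.1, 102.1 and 106.4 CPM to 124.6, 128.6 and 124.1 CPM, 1.2-fold higher without overlap (log2 fold change 0.26, SE 0.0430, adjusted p = 0.0111). Both directions held in every fit, but the calls did not. The MMP13 call was lost with effective lengths in the fit (adjusted p = 0.0695). It was also lost without parental DMSO replicate 1, 2 or 3 (0.153, 0.168 and 0.128), parental BYL719 replicate 2 or 3 (0.166 and 0.200) or knock-in DMSO replicate 3 (0.0558). The TIMP3 call was lost without parental DMSO replicate 1 or 2 (0.0772 and 0.0752) or parental BYL719 replicate 1, 2 or 3 (0.0510, 0.0818 and 0.0566). MMP10 also did not overlap between the groups, which made 3 of the 10 genes against 31.5% of all genes, but its log2 fold change of 0.10 (SE 0.101) did not pass the test (adjusted p = 0.838). The other 7 genes had log2 fold changes between -0.03 and 0.10.

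In knock-in cells MMP13, TIMP2 and TIMP3 rose under BYL719, again with none called lower. That is 3 of 10 genes, against 28.3% of all genes called, 15.1% higher. MMP13 went from 0.233, 0.191 and 0.216 CPM to 0.646, 0.564 and 0.996 CPM, 3.43-fold higher (log2 fold change 1.78, SE 0.237, adjusted p = 0.000164 in edgeR), and it passed the test in all 12 fits that left out 1 library. TIMP2 went from 135.7, 121.8 and 133.9 CPM to 156.5, 153.6 and 158.6 CPM (log2 fold change 0.26, SE 0.0473, adjusted p = 0.00169). TIMP3 went from 55.1, 49.95 and 55.2 CPM to 62.4, 60.7 and 60.9 CPM (log2 fold change 0.19, SE 0.0433, adjusted p = 0.00544, or 0.0779 with only the 2 groups fitted). The 2 groups did not overlap for any of the 3 genes.

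MMP14 and MMP1 lay at the edge of the threshold in knock-in cells. MMP14 was at 294.5, 279.2 and 299.7 CPM under BYL719, above all 3 DMSO libraries (log2 fold change 0.13, SE 0.0467, adjusted p = 0.0511 in edgeR). It passed without knock-in DMSO replicate 2 (0.15, adjusted p = 0.00708), without knock-in BYL719 replicate 2 (0.17, adjusted p = 0.0384), with library totals as the scaling (0.14, adjusted p = 0.0338) and with effective lengths (0.25, adjusted p = 0.00561). MMP1 had a log2 fold change of 1.74 (SE 0.607, adjusted p = 0.0521). MMP1 passed under library total scaling (adjusted p = 0.0475), upper quartile scaling (0.0484) and DESeq2 (0.0284), and without knock-in BYL719 replicate 1 (0.0212) or 2 (0.0104). Without knock-in BYL719 replicate 3 it was 0.27 (SE 0.149, adjusted p = 0.245). In total 5 of the 10 genes did not overlap between these groups, against 38.2% of all genes. MMP9, MMP10, MMP3 and TIMP1 had log2 fold changes between -0.06 and 0.08 and were not called.

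The effect of BYL719 in knock-in cells minus that in parental cells was tested directly as an interaction. None of the 10 genes was called by edgeR, against 2.87% of all genes. DESeq2 gave MMP3 no adjusted p and called none of the others, against 8.03% of the 17337 genes with an adjusted p. At an unadjusted p under 0.05 in edgeR there were 2, against 16.6% of all genes. They were TIMP2 (log2 difference 0.19, SE 0.0669, unadjusted p = 0.0151, adjusted p = 0.169) and MMP13 (0.71, SE 0.325, unadjusted p = 0.0496, adjusted p = 0.301). The larger log2 fold changes of MMP13 and TIMP2 under BYL719 in knock-in cells were thus not shown to differ from those in parental cells.

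The 3.18 CPM of MMP1 in knock-in BYL719 replicate 3 came with other genes, described here as values. The gap between that library and the higher of its 2 group mates was ranked on log2(CPM + 0.1) over 13946 genes, a ranking made after the values were seen. COL1A2 came first, COL3A1 the third, GREM1, a secreted BMP antagonist, the fourth, SPARC, a collagen-binding matrix protein, the fifth and MMP1 the sixth. Rank 2 went to AP000295.1, at 1.505 CPM against 0 and 0.0168 in the group mates. AP000295.1 also differed within parental BYL719, at 0.0110, 2.03 and 1.745 CPM. SPARC was at 0.198 and 0.168 CPM in the other knock-in BYL719 libraries and at 1.83 CPM in replicate 3, and GREM1 at 0.0514, 0.0610 and 1.09 CPM. MMP2 rose above its group mates to a lesser degree, at 0.912 CPM against 0.301 and 0.358, and without replicate 3 its log2 fold change under BYL719 in knock-in cells was -0.08 in place of 0.59. MMP13 was also highest there, at 0.996 CPM against 0.646 and 0.564, and its log2 fold change under BYL719 in knock-in cells was 1.496, still called, without replicate 3 in place of 1.78. MMP9 was at 10.53 CPM against 9.19 and 8.63, and its uncalled log2 fold change was -0.07 without replicate 3 in place of 0.02. MMP10, at 0.989 CPM, lay between its group mates. SPARC and MMP1 were also high in all parental libraries, SPARC at 2.80 to 3.44 CPM, whereas COL1A2 and COL3A1 were at most 0.307 and 0.157 CPM in them. The part of other cells or of another library in these values was not tested.

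**Figure D3:**
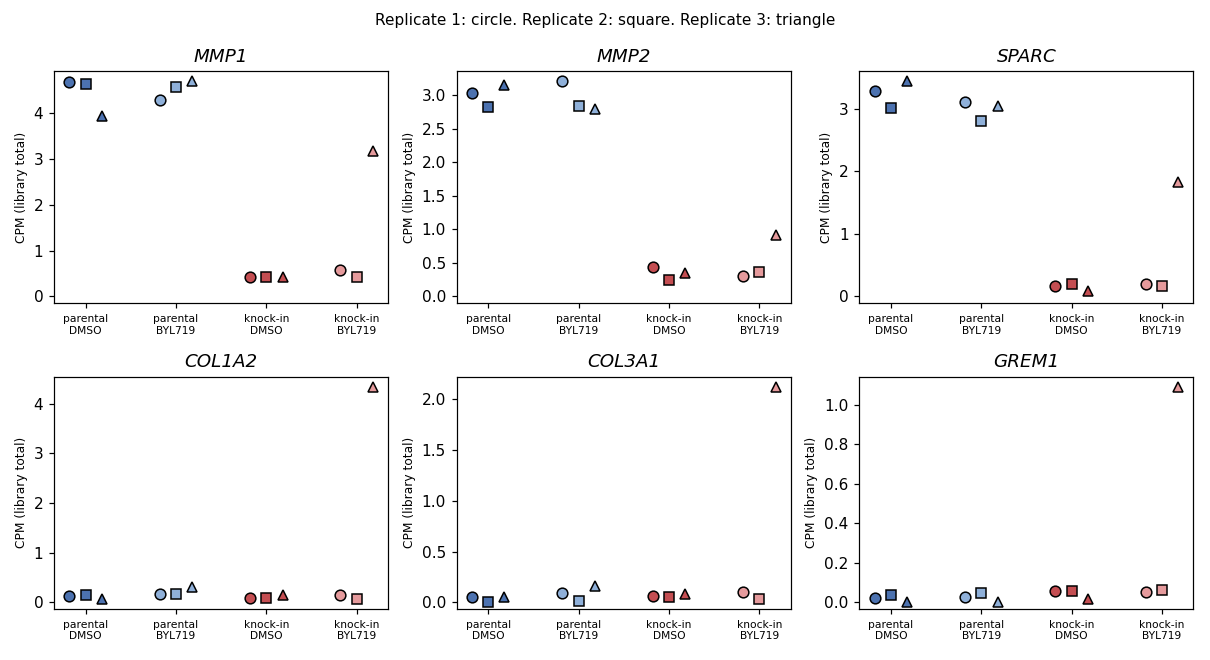
Level in CPM (vertical axes) of MMP1, MMP2, SPARC, COL1A2, COL3A1 and GREM1 in the 12 libraries, with a symbol for each replicate number. The triangle of knock-in BYL719 lies above the circle and square of its group in all 6 panels, at 3.18 CPM for MMP1, 0.912 for MMP2, 1.83 for SPARC and 4.33 for COL1A2.

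Of the 10 genes, 4 lie in one cluster of 9 metalloproteinase genes on chromosome 11, where MMP7, MMP20, MMP27, MMP8, MMP10, MMP1, MMP3, MMP12 and MMP13 follow each other over 435 kb (chr11:102520508-102955734, GRCh38, GENCODE 29). Neighbouring genes there differed in direction between the lines. MMP10 (chr11:102770503-102780628) and MMP1 (chr11:102789920-102798160), 9291 bases apart, fell in knock-in DMSO cells by 3.64 and 3.37 on the log2 scale. MMP3 (chr11:102835801-102843803), the next gene 37640 bases on, rose by 1.47. That rise rests on 4 to 18 reads per parental library and 22 to 33 per knock-in library. MMP13 (chr11:102942995-102955734), at the end of the cluster, was the only one of these 4 to pass the test for BYL719 in either line. MMP7, at the opposite end, had a log2 fold change of 1.11 in DMSO that did not pass the test (adjusted p = 0.127). Between the lines under BYL719 its log2 fold change was 1.96 (adjusted p = 0.0149 in edgeR), at no more than 0.358 CPM. That call held in 9 of the 12 fits with 1 library left out. MMP8 and MMP12 reached at most 0.0077 and 0.0291 CPM, MMP20 and MMP27 had no reads, and none of the 4 was tested.

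**Figure D4:**
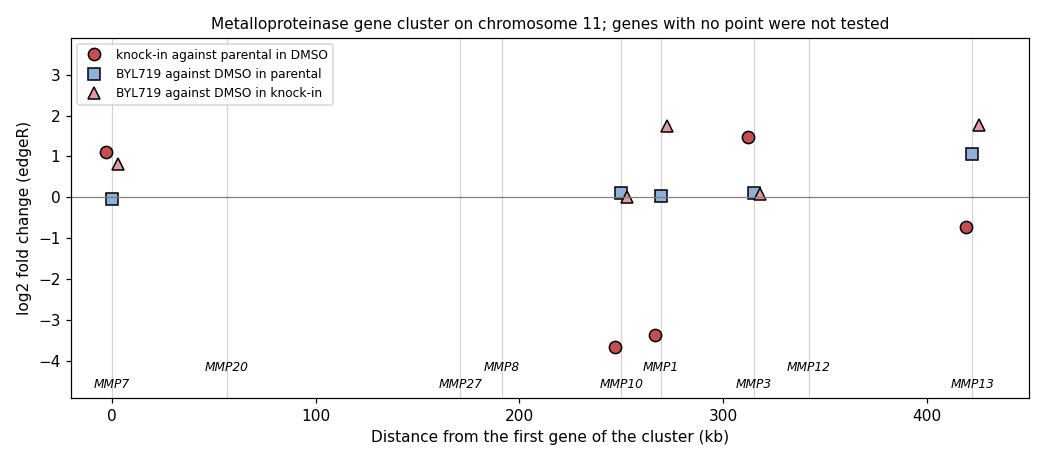
Log2 fold change from edgeR (vertical axis) of the cluster genes against the distance of their lower end from that of MMP7 in kb (horizontal axis), for knock-in against parental cells in DMSO and BYL719 against DMSO in each line. MMP10 and MMP1 lie at -3.64 and -3.37 for the line contrast, beside MMP3 at 1.47, and MMP13 has the points for BYL719 at 1.07 and 1.78. The MMP3 points rest on 4 to 35 reads per library.

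The other 6 genes are dispersed (GRCh38, GENCODE 29). MMP2 is at chr16:55389700-55506691, MMP9 at chr20:46008908-46016561, MMP14 at chr14:22836557-22849027, TIMP1 at chrX:47582313-47586789, TIMP2 at chr17:78852977-78925387 and TIMP3 at chr22:32801701-32863043. TIMP3 and TIMP1 each lie inside a gene on the opposite strand, SYN3 and SYN1, which were at most 0.172 and 0.644 CPM. The sources used here do not say whether the libraries were stranded. MMP9 shares 13.8% of its 31-base words with the antisense gene SLC12A5-AS1, which was at most 0.0370 CPM, and MMP1 shares 4.85% with the opposite-strand gene WTAPP1, at most 0.0499 CPM. TIMP2 shares 9.87% of its words with other genes, most of them with AC022966.1 on the opposite strand, at 1.21 to 4.99 CPM. MMP14, TIMP1 and TIMP3 share none.

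Transcript assignments differed between libraries for some of the genes. MMP1, MMP9 and TIMP3 each have 1 transcript in the tables, so their gene values do not depend on it. MMP10-202, a transcript of 581 bases, took 6.92% to 12.5% of MMP10 reads in the 6 parental libraries and 0% in the 6 knock-in libraries, where MMP10-201 took all of them. TIMP2-201 and TIMP2-203, both coding and 3652 and 3345 bases long, divided the TIMP2 reads unevenly. TIMP2-203 held 60.7%, 63.8% and 61.9% in knock-in DMSO, 34.2% to 57.4% in the parental libraries, and 55.2%, 46.7% and 10.2% in knock-in BYL719. With effective lengths in the fit, the log2 fold change of TIMP2 was 0.52 in place of 0.50 between the lines in DMSO, 0.68 in place of 0.69 between them under BYL719, and 0.23 in place of 0.26 for BYL719 in knock-in cells.

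The 250 bases before the start were matched in the RefSeq promoter table (GRCh38.p14) for 4 of the 10 genes, MMP10, MMP14, TIMP1 and TIMP3. MMP10 and TIMP3 are shown because both fell in knock-in cells by margins well beyond the spread of the libraries, while their promoters differ in base composition. They are written 5′ to 3′ on the strand of the gene, with TATAAA in capitals where it occurs, and end at the base before the start. MMP10 is at chr11:102780629-102780878 on the minus strand, and TIMP3 is at chr22:32801455-32801704 on the plus strand.
MMP10: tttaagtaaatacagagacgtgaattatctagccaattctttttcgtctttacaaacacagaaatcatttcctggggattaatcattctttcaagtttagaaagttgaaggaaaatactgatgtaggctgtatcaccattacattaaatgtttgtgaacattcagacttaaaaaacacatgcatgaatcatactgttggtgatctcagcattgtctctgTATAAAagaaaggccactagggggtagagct
TIMP3: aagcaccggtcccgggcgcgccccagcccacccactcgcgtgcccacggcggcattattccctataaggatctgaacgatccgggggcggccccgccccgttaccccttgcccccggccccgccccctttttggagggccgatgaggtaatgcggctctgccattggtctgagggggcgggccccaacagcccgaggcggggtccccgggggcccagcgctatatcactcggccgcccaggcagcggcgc

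The MMP10 window has a GC content of 34.4% and that of TIMP3 72.4%, where the median of 35116 promoter windows was 58.0%. Both strands were searched for 4 motifs that do not overlap one another. The AP-1 motif TGAGTCA occurs in 4.2% of all windows. The FOXO motif GTAAACA occurs in 2.98%. The TATA box, TATAAA, occurs in 10.7%. The ETS motif AGGAAG occurs in 28.7%. TATAAA occurs in the MMP10 window, starting 31 bases before the start, and AGGAAG in the TIMP1 window, 87 bases before it. Neither TGAGTCA nor GTAAACA occurs in any of the 4 windows, and the TIMP3 and MMP14 windows hold none of the 4 motifs.

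Genes with the most similar pattern over the 12 libraries were sought among 13775 genes by Pearson's r of log2(CPM + 1). Since the 2 lines form separate groups, a high r mostly records the difference between them, and the values are given as a description. MMP10 was most like AFAP1L2 (r = 0.999), MMP9 like TFPI2 (0.997), TIMP3 like PPFIBP2 (0.998), TIMP2 like PLOD1 (0.996) and MMP14 like APMAP (0.975). MMP1 was most like SPARC (0.993), the pair that also shared the high value in knock-in BYL719 replicate 3, and MMP2 was most like COL6A2 (0.992). MMP3 and MMP13, with few reads, were most like LINC01550 (0.960) and LURAP1L (0.943). With 0.1 added to CPM in place of 1, COL6A2 was not among the 3 genes most like MMP2. The other similar genes named here kept a place among the 3 of their member.

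The other genes of pericellular proteolysis were counted in 8 lists, against the same shares of all genes called as above. These lists too were chosen with earlier results of these data known. Among the other metalloproteinases and TIMP4, 11 of 17 were tested, and in knock-in against parental DMSO cells 4 rose and 2 fell, with a median log2 fold change of 0.40 against 0.005 for all genes. MMP19, a basement membrane protease, rose from 0.880 ± 0.0300 to 2.98 ± 0.0819 CPM (log2 fold change 1.78, adjusted p = 1.60e-07 in edgeR), and membrane-bound MMP16 rose by 0.91 (adjusted p = 0.00134). MMP25, a GPI-anchored enzyme, fell from 3.18 ± 0.15 to 1.09 ± 0.15 CPM (log2 fold change -1.52, adjusted p = 3.32e-07), and MMP28 (epilysin) fell by 0.95. Of the 18 regulators of metalloproteinases tested, 3 rose and 7 fell. These counts were 2 and 7 without knock-in DMSO replicate 2 or without knock-in BYL719 replicate 3. With effective lengths in the fit they were 2 and 6. RECK, a membrane-anchored inhibitor, rose from 5.31 ± 0.0444 to 7.03 ± 0.190 CPM (log2 fold change 0.43), while the tetraspanin CD9 fell by 0.57 and THBS2, which binds MMP2 for uptake, by 0.87.

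Plasmin activates several metalloproteinase precursors. Of the 12 plasminogen system genes, 5 rose and 2 fell in knock-in DMSO cells, or 5 and 3 without knock-in DMSO replicate 2. The urokinase gene PLAU rose from 55.5 ± 7.09 to 102.3 ± 12.2 CPM (log2 fold change 0.91, adjusted p = 0.000764 in edgeR), and the protease inhibitor gene SERPINE2 rose by 1.09. Of the 13 ADAM and ADAMTS genes, 6 rose and 1, ADAM8, fell by 1.47, and without knock-in DMSO replicate 2 there were 10 that rose. Over all genes that fit gave 8382 calls in place of 7213. ADAM12 rose from 16.8 ± 0.104 to 39.8 ± 8.17 CPM (log2 fold change 1.27). Of the 16 other surface and lysosomal proteases and inhibitors tested, 1 rose and 9 fell, with a median of -0.50. The kallikreins KLK7, KLK8 and KLK5, skin-type serine proteases, went from 0.766, 0.478 and 0.575 CPM to 0.00257, 0.0123 and 0.0226 CPM. The knock-in values are at most a few reads per library. CTSB (cathepsin B) rose by 0.26.

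Substrates, transcription factors and inducers moved in both directions between the lines. Of the 22 matrix substrates tested, 7 rose and 8 fell in knock-in DMSO cells. The collagen-binding proteoglycan decorin (DCN) rose from 4.66 ± 0.608 to 53.9 ± 2.37 CPM (log2 fold change 3.56, adjusted p = 2.94e-10 in edgeR), and versican (VCAN) fell by 3.27 from 12.6 ± 0.318 CPM (adjusted p = 6.13e-10). Of the 15 AP-1 and ETS factors tested, 8 rose, among them ATF3 and FOSL1 by 0.93 each, and 5 fell, among them the epithelial factor ELF3 by 2.58. Of the 9 inducers of metalloproteinases tested, 6 rose, among them AREG by 1.76, IL1A by 1.60 and IL1B by 1.53, and EGFR fell by 0.77.

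Under BYL719 the line contrast was counted in the same lists, with 11.4% of all genes called higher and 10.9% lower. Without knock-in DMSO replicate 2, 7442 genes were called over all tested in place of 4709. Of the other metalloproteinases 5 rose and 3 fell. The plasminogen system genes had 5 that rose and 2 that fell, or 5 and 3 without knock-in DMSO replicate 2. Among the ADAM and ADAMTS genes 7 rose and 1 fell. Those counts were 10 and 1 without knock-in DMSO replicate 2, and 5 and 1 without knock-in BYL719 replicate 3. Of the other surface and lysosomal proteases 2 rose and 10 fell, or 4 and 10 without knock-in DMSO replicate 2. Of the regulators 2 rose and 2 fell, or 5 and 3 without knock-in DMSO replicate 2. Of the matrix substrates 8 rose and 4 fell. Among the AP-1 and ETS factors 6 rose and 3 fell (5 without knock-in DMSO replicate 2). The inducers had 6 that rose and none that fell, or 5 and 1 without knock-in DMSO replicate 2.

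For BYL719 in parental cells, 1.43% of all genes were called. Of the list genes DCN rose by 1.18 (adjusted p = 0.000134 in edgeR) and FOSL1 fell by 1.00 (adjusted p = 0.0404), and no other was called. The FOSL1 call held in 3 of the 12 fits with 1 library left out, and that of DCN in all 12. Without knock-in DMSO replicate 2, 2 AP-1 or ETS factors, 1 regulator and 1 other protease were called higher and 2 inducers lower. That fit called 1973 genes over all tested, in place of 302. In knock-in cells under BYL719, 10 of 18 regulators and 13 of 22 matrix substrates rose and none fell. Of all genes, 15.1% were called higher and 13.2% lower. Those list counts were 4 and 4 without knock-in BYL719 replicate 3, with 1 substrate then lower, and 8 and 9 without knock-in DMSO replicate 2. Calls over all genes were 5964 in the main fit, 4237 without knock-in BYL719 replicate 3 and 6977 without knock-in DMSO replicate 2. COL1A2, one of the 13, had a log2 fold change of 3.77 that was 0.01 (adjusted p = 0.992) without knock-in BYL719 replicate 3, and it was called in only 2 of the 12 fits with 1 library left out. DCN rose by 1.37 with it and by 1.32 without it. Of the inducers, 5 fell and 2 rose, with IL1A at -1.08, AREG at -0.82 and IL1B at -0.80, and TGFB2 rose by 1.10. Among AP-1 and ETS factors, FOSL1 fell by 0.96 and JUN by 0.75, while FOSL2 rose by 0.98. Of the plasminogen system genes 1 rose and 1 fell, of the ADAM and ADAMTS genes 2 rose, and of the other surface and lysosomal proteases 3 rose. Without knock-in BYL719 replicate 3, 1 plasminogen system gene rose and 0 fell, 1 ADAM or ADAMTS gene rose, and 2 of the other proteases rose and 1 fell. Without knock-in DMSO replicate 2, 2 plasminogen system genes rose and 1 fell, and 4 of the other proteases rose. Among the other metalloproteinases, 3 fell in knock-in cells, and without knock-in BYL719 replicate 3 it was 1. Without knock-in DMSO replicate 2, 2 of the ADAM and ADAMTS genes also fell. In the interaction edgeR called none of the genes in the 8 lists, against 2.87% of all genes. At an unadjusted p under 0.05 there were 0 to 5 per list, against 16.6% of all genes. DESeq2 called 0 to 2 per list, against 8.03% of the genes it gave an adjusted p. Without knock-in DMSO replicate 2, edgeR called 2 AP-1 or ETS factors and 1 gene each of the regulators, the plasminogen system and the inducers. Over all genes that fit called 1874 in the interaction, in place of 606.

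**Figure D5:**
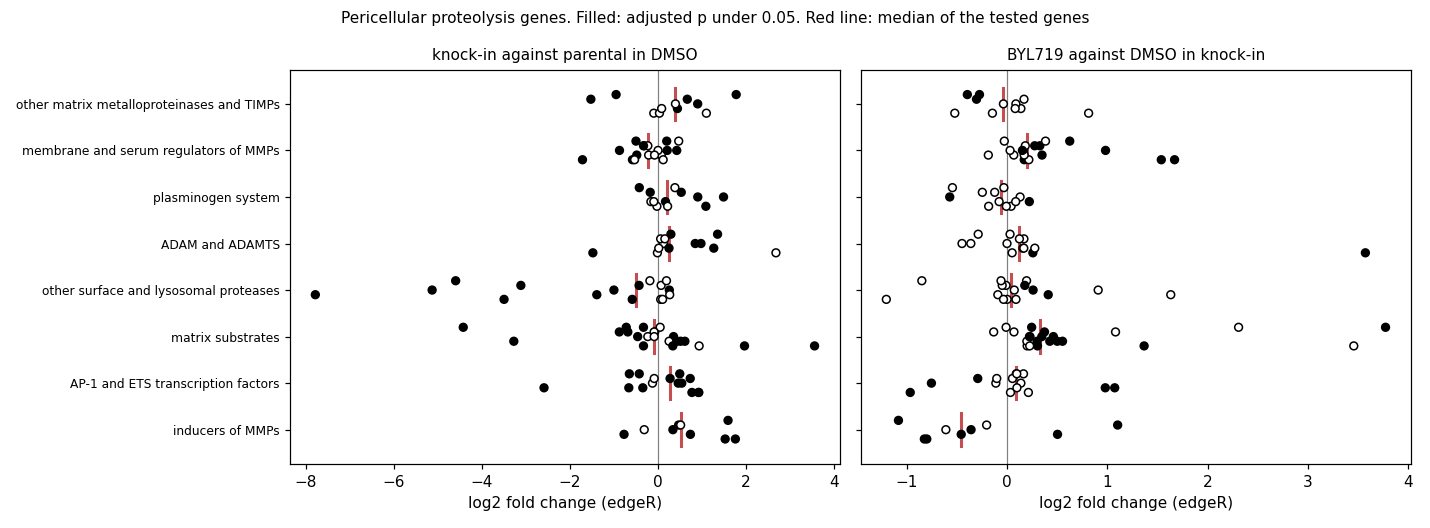
Log2 fold change from edgeR (horizontal axes) of the tested genes of 8 lists in knock-in against parental DMSO cells (left) and in BYL719 against DMSO in knock-in cells (right), with filled points for an adjusted p under 0.05 and red lines at list medians. On the left the surface and lysosomal proteases reach far below 0 with a median of -0.50, and on the right the inducers have a median of -0.46 and the matrix substrates one of 0.33.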

How the data were processed

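RNA of 12 MCF10A libraries was sequenced as 150-nucleotide pairs, and 12 mouse fibroblast libraries of the series were not used here. Per the submitters' processing notes, the authors used Trim Galore 0.6.1, cutadapt, Salmon 1.2.1 and DESeq2 1.28.1 with GRCh38. The deposited tables give each transcript an expected count, a TPM and an effective length. The sources used here do not name the annotation release; 93.6% of their transcripts are in GENCODE 29, which supplied positions and coding sequences. The 10 genes and the lists were chosen with earlier results of these data known.

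For each gene identifier, the authors' expected counts were added over transcripts and rounded. CPM (counts per 1e6 reads) uses the library total, and TPM was summed over transcripts. All 12 libraries were fitted by group means in edgeR 4.0.16 (R 4.3.3; robust quasi-likelihood test, TMM scaling, filterByExpr, leaving 8 residual degrees of freedom), two-sided, with Benjamini-Hochberg adjustment over 21079 genes. Every adjusted p is from this fit unless named otherwise. Each SE was derived from the test, as the absolute log2 fold change divided by the square root of its F statistic. The alternatives were other scalings, no filter, effective-length offsets, a replicate block, only the 2 groups compared, DESeq2 1.42.0 and leaving out each library. From each list the text names at most the 3 genes that rose most and the 3 that fell most; of the 3 most similar genes of a member, only the first is named. Promoter searches used 250 bases before the start, not the planned 300-base window. The planned protein comparison was replaced by coding sequences. List counts without single libraries were added after seeing the data. Values of 1 gene of these lists are not reported here.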

Additional observations from a re-analysis of the deposited data

How the results depend on the processing

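The 10 log2 fold changes in 5 comparisons gave 340 values under the other settings, of which 320 kept direction and side of the threshold, 6 lost the call, 5 gained it and 9 changed sign. The 9 were all uncalled and near 0: MMP9 in parental cells under BYL719 (0.0012, upper quartile scaling), MMP14 there (-0.0040, effective-length offsets), TIMP1 between the lines under BYL719 (-0.0043, library totals), and, under BYL719 in knock-in cells, MMP9 and MMP10 without a filter (-0.0107 and -0.0175), with effective-length offsets (-0.0013 and -0.0107) and with DESeq2 (-0.0064 and -0.0130). Of 600 values with 1 library left out, 521 kept direction and side, 31 lost the call, 4 gained it and 44 changed sign, none of them a called value. With 1 left out, the range for BYL719 in parental cells was -0.0363 to 0.0622 for MMP1, -0.104 to 0.0129 for MMP2, -0.204 to 0.602 for MMP3, -0.0598 to 0.0396 for MMP9 and -0.0069 to 0.0444 for TIMP1. In knock-in cells it was -0.0846 to 0.839 for MMP2, -0.0581 to 0.204 for MMP3, -0.0686 to 0.102 for MMP9, -0.119 to 0.142 for MMP10 and -0.171 to 0.0708 for TIMP1. Between the lines it was -0.0423 to 0.201 for TIMP1 in DMSO and -0.303 to 0.14 for MMP13 under BYL719. In the interaction it was -0.0525 to 0.877 for MMP2, -0.551 to 0.279 for MMP3, -0.0607 to 0.116 for MMP9, -0.211 to 0.0495 for MMP10 and -0.188 to 0.0544 for TIMP1. Called members were 8 to 9 with 1 library left out for the lines under DMSO and 6 to 7 under BYL719, 0 to 2 for BYL719 in parental cells, 3 to 5 in knock-in cells and 0 in the interaction. For BYL719 in parental cells 1 member was called with effective-length offsets, and in knock-in cells 5 with library totals. Over all genes, BYL719 in parental cells gave 302 calls, but 133 with effective-length offsets, 3484 with only the 2 groups, 863 with DESeq2 and 73 to 1973 with 1 library left out, the most without knock-in DMSO replicate 2. BYL719 in knock-in cells gave 5964 calls, 2610 with only the 2 groups and 4237 to 6977 with 1 library left out. With 1 left out the lines gave 5759 to 8382 calls under DMSO and 3562 to 7442 under BYL719. The interaction gave 606, but 272 with effective-length offsets, 1393 with DESeq2 and 239 to 1874 with 1 library left out. The cause was not tested. Deviations of same-numbered libraries from their group means had r of -0.07 to 0.08 over 18 pairs, with a median of 0.03. Over 36 pairs of different number r was -0.07 to 0.08, with a median of -0.02. With the replicate number as a block the called members stayed at 9, 2, 3, 8 and 0. The genes called among all tested were then 7104, 213, 5818, 4510 and 443. Depth limits MMP3 and MMP13, at 4 to 35 and 25 to 142 reads per library.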
